A study of Mus musculus with 4 samples.

Results

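The genes described here are 38 antiviral genes that type I interferon is known to switch on, measured in whole tumour-bearing eyes of intact and splenectomized mice. They were taken as a named list that was chosen with earlier results of these data known, so counts over it are descriptions. Each gene was read from 1 probe set, the one with the highest mean log2 signal among those with a single gene symbol and a Present call on 2 or more arrays. Of the 38 genes, 34 had such a probe set, out of 13148 genes tested in all. All 34 probe sets used were Present on all 4 arrays, so no gene entered through a call in only 1 group. The remaining members were Mx2 and Oas3, whose probe sets were Absent on every array, Isg15, whose only probe set carries a second symbol, and Ifi44, for which no probe set was named.

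The eyes came from C57BL/6 mice of both sexes older than 7 weeks, and the sex of each animal is not in the labels. Every mouse received 10000 luciferase-expressing E.G7-OVA cells, a T cell lymphoma of the mouse carrying ovalbumin as a model antigen, in the anterior chamber of the eye, and eyes were removed on day 15. The intact group (n = 2) had no surgery and the splenectomized group (n = 2) had lost the spleen before the injection, so the injected line is common to both groups and no tumour-free eye is compared here. Total RNA was hybridised to Affymetrix mouse arrays, 1 eye sample an array. Values are signal intensities as deposited, in arbitrary units, and a fold change is the difference between group means of log2 signals. The labels give no number to the animals, so p-values measure the spread between these samples only.

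Type I interferons are secreted when a cell senses foreign or misplaced nucleic acid. They bind the receptor pair Ifnar1 and Ifnar2, and a complex containing Stat2 and Irf9 forms inside the cell and binds the interferon-stimulated response element in the promoters of many genes. Their products sense viral RNA and DNA, degrade or tag RNA, stop translation and trap virus particles. Many of the same genes also respond to interferon gamma, the interferon of activated T and natural killer cells.

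All 34 measured genes had higher mean signals in splenectomized than in intact mice, where 55.1% of all genes tested did. The middle of their log2 fold changes ran from 0.43 to 0.93 between the quartiles, around a median of 0.56, against a median of 0.05 over all genes. The signals of both splenectomized arrays lay above both intact arrays for 29 of the 34, where 21.7% of all genes showed such a gap in that direction. An unadjusted p under 0.05 with a higher mean was reached by 24 members, against 6.66% of all genes. More than 1.5-fold higher signals were seen for 15 members, against 13.5% of all genes, and more than 2-fold higher signals for 7, against 3.1%. In limma with Benjamini-Hochberg adjustment over all 13148 genes, 0 members passed the threshold of 0.05 (smallest adjusted p = 0.158), as did 0.0% of all genes, of which 1180 had an unadjusted p under 0.05 in either direction. No single member is therefore called changed.

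**Figure D1:**
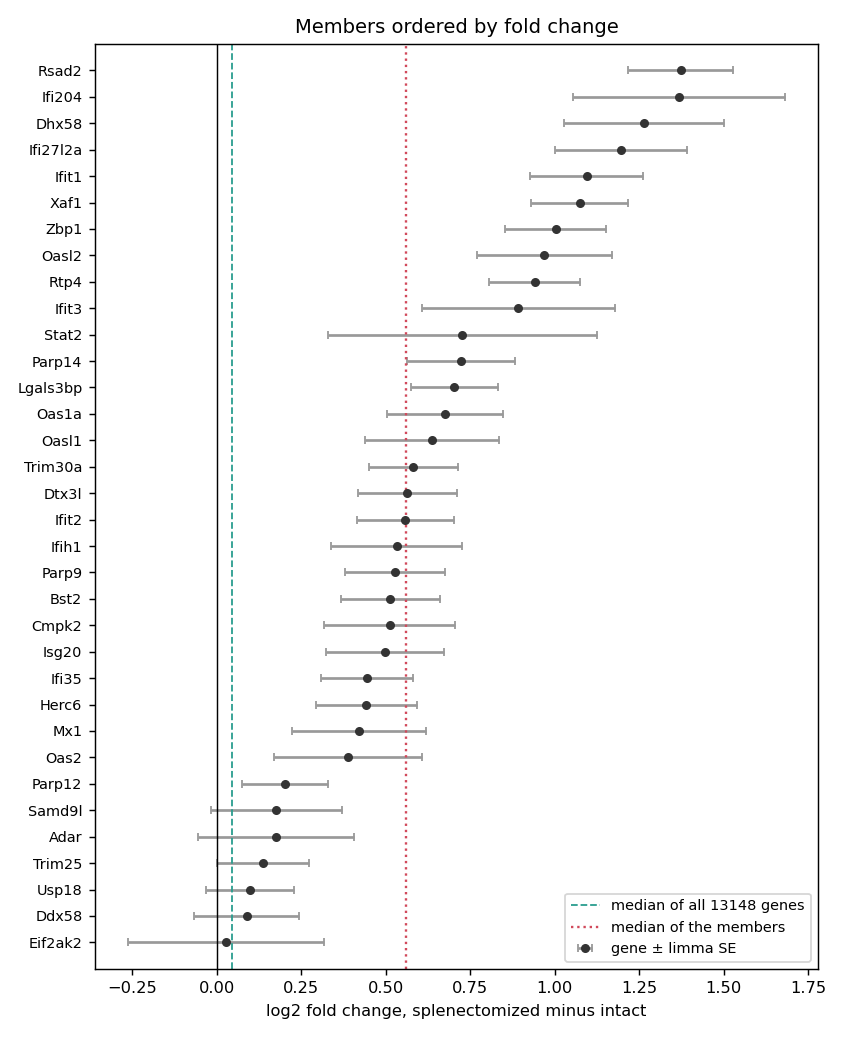
Log2 fold change of each of the 34 measured members, splenectomized minus intact, with the standard error of limma (2 arrays a group). The dashed line is the median of all 13148 genes (0.05) and the dotted line the median of the members (0.56); the genes run from Rsad2 at 1.37 to Eif2ak2 at 0.03.

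The members did not differ by a common amount. Rsad2, Ifi204, Dhx58, Ifi27l2a, Ifit1, Xaf1 and Zbp1 were above 2-fold, and 8 more lay between 1.5-fold and 2-fold. A further 12 lay between 1.2-fold and 1.5-fold. The last 7, Parp12, Samd9l, Adar, Trim25, Usp18, Ddx58 and Eif2ak2, were under 1.2-fold, and 5 of these had overlapping groups (all but Parp12 and Trim25).

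Promoter windows of RefSeq (GRCm38.p6), 300 bases long with 250 before and 50 after the start of a gene, were matched to 24 of the 34 measured members by symbol. The core of the interferon-stimulated response element was searched as GAAANNGAA on both strands, reading TTCNNTTTC on the other. It occurred in the windows of 13 of the 24 members (54.2%), in those of 8.60% of the 10582 tested genes, members included, that had a window, and in 8.56% of all 32851 windows. Of the 12 members with the larger fold changes 6 held it, and of the 12 with the smaller 7 did. A match is a description of these letters and not evidence of a factor bound there. The sites nearest the start are shown for 5 members above 1.2-fold and 3 of the 7 below it, with up to 40 bases on either side. Capitals mark matches to GAAANNGAA on either strand, and overlapping matches run together.
Rsad2, chr12:26456523-26456611, minus strand: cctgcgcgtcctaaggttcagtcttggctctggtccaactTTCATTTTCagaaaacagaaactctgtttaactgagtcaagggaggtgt
Ifit1, chr19:34640765-34640853, plus strand: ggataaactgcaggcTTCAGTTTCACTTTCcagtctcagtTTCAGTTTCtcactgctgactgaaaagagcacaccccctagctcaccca
Ifit3, chr19:34583387-34583475, plus strand: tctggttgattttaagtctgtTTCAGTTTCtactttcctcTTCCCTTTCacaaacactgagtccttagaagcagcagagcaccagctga
Oas1a, chr5:120907491-120907579, minus strand: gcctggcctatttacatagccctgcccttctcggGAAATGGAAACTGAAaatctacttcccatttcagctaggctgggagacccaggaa
Bst2, chr8:71537548-71537636, minus strand: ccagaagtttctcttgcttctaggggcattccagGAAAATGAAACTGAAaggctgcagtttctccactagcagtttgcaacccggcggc
Trim25, chr11:88999354-88999442, plus strand: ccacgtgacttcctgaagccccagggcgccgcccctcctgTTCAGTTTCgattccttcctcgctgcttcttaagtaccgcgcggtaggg
Ddx58, chr4:40239776-40239862, minus strand: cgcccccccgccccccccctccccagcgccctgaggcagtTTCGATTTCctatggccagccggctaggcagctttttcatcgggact
Eif2ak2, chr17:78882523-78882594, minus strand: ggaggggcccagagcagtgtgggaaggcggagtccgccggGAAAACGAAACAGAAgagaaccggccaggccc

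In the whole windows Ifit1 and Ifit3 each held 3 matches, of which 1 of Ifit3 lies before the stretch shown, Oas1a, Bst2 and Eif2ak2 held 2, and Rsad2, Trim25 and Ddx58 held 1. Eif2ak2, the member with the smallest fold change, thus carried as many matches as Oas1a. The gamma-activated site, an element of genes that respond to interferon gamma, was searched as TTCNNNGAA, which reads the same on both strands. It occurred in the windows of 7 of the 24 members (29.2%) and in 8.25% of the genes tested that had a window. Of the 12 members with the larger fold changes 2 held it, and of the 12 with the smaller 5 did.

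**Figure D2:**
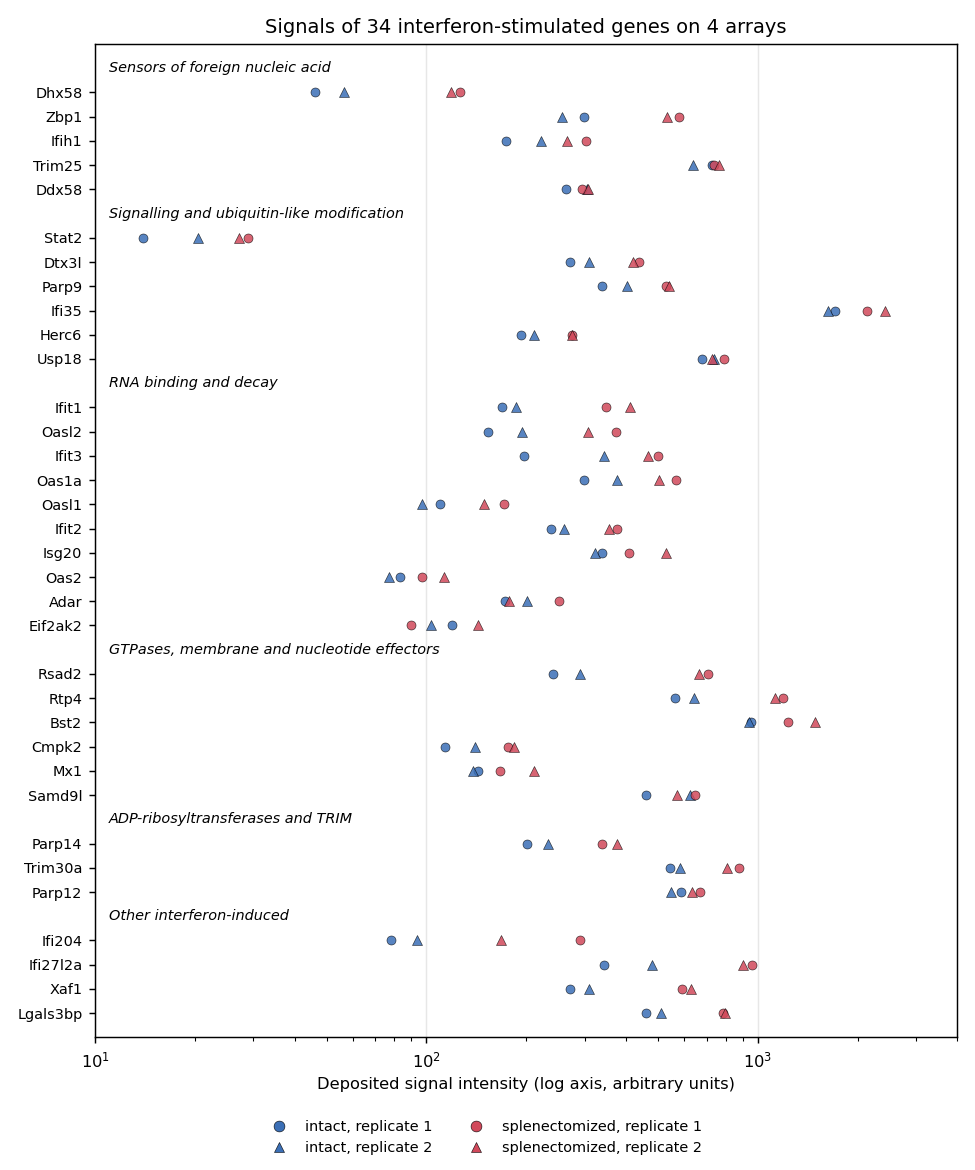
Deposited signal of each measured member on each of the 4 arrays (log axis, arbitrary units), grouped by role and ordered within a role by fold change. Circles are replicate 1 and triangles replicate 2, blue intact and red splenectomized; in 29 rows both red points lie to the right of both blue points, and Eif2ak2 shows red points on both sides of the blue.

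Sensors of foreign nucleic acid were split. The RIG-I-like receptors are RNA helicases of the cytosol, and the 3 of them differed by unequal amounts. Dhx58 encodes LGP2, the member of that family that lacks the signalling domain and modulates the other two. Its signal was 46.0 and 56.5 on the intact arrays and 126.6 and 118.3 on the splenectomized arrays, 2.40-fold higher (log2 1.26 ± 0.24, SE; unadjusted p = 0.00303, limma adjusted p = 0.243). Both splenectomized values were more than 2 times either intact value.

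Ifih1, which encodes MDA5, a sensor of long double-stranded RNA, was at 173.3 and 222.0 in intact and 302.6 and 265.9 in splenectomized mice, 1.45-fold higher (limma adjusted p = 0.529). Ddx58, which encodes RIG-I, a sensor of RNA with a triphosphate end, was at 262.8 and 305.6 in intact and 294.8 and 308.2 in splenectomized mice, 1.06-fold (log2 0.09 ± 0.15, SE). The Ddx58 groups overlapped. The log2 ratio of Dhx58 to Ddx58 on the same array was -2.51 and -2.44 in intact and -1.22 and -1.38 in splenectomized mice, so it shifted by 1.17 with no overlap. That of Ifih1 to Ddx58 shifted by 0.44, from -0.60 and -0.46 to 0.04 and -0.21, also without overlap. These shifts are differences between probe sets of 1 array and do not compare the levels of the genes. They also depend on the probe sets used. The other detected probe set gave 1.23-fold for Dhx58 and 1.26-fold for Ddx58.

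Zbp1, a sensor of Z-form nucleic acid that can start necroptosis, was at 299.7 and 256.6 in intact and 578.4 and 533.6 in splenectomized mice, 2.0-fold higher (log2 1.0 ± 0.15, SE; limma adjusted p = 0.197). Trim25, a ubiquitin ligase linked to RIG-I activation, had the highest signals of the sensor group, at 728.8 and 635.2 in intact and 735.4 and 761.1 in splenectomized mice. Its 1.10-fold difference was about the size of its standard error (log2 0.14 ± 0.14, SE). The Trim25 probe set is of a type that can read more than 1 gene. Its further detected probe sets had lower signals and gave 0.99-fold and 1.01-fold.

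Among the genes of interferon signalling and ubiquitin-like modification, 1 of 6 measured members exceeded 1.5-fold, against 13.5% of all genes. The median was 0.49 on the log2 scale. Stat2, a subunit of the transcription factor complex itself, had the lowest signals of any measured member, at 14 and 20.5 in intact and 28.9 and 27.2 in splenectomized mice. It was 1.65-fold higher, but with a standard error of 0.40 on the log2 scale (unadjusted p = 0.126). Usp18, the protease that removes Isg15 from proteins and damps the receptor, was at 677.2 and 736.7 in intact and 789.2 and 725.9 in splenectomized mice, 1.07-fold (log2 0.10 ± 0.13, SE). Its groups overlapped.

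Herc6, the main Isg15 ligase of the mouse, was at 193.4 and 211.2 in intact and 274.9 and 274.7 in splenectomized mice, 1.36-fold higher. Ifi35, a leucine zipper protein that binds Nmi, had the highest signals of the group, at 1709.9 and 1626.9 in intact and 2131.1 and 2418.7 in splenectomized mice, 1.36-fold higher. Its probe set is of a type that can read more than 1 gene. Parp9 and Dtx3l encode an ADP-ribosyltransferase and a ubiquitin ligase that act as one complex, and they are direct neighbours in the genome together with Parp14. Their signals were 1.44-fold and 1.48-fold higher, and those of Parp14 1.65-fold (201.7 and 232.3 in intact, 339.2 and 376.5 in splenectomized mice). All 3 had groups without overlap, as did 21.7% of all genes in that direction.

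Genes that bind, tag or degrade RNA covered the range from no difference to 2-fold. Ifit1, whose product holds back RNA that lacks the host's cap marks, was at 168.9 and 186.2 in intact and 347.8 and 412.1 in splenectomized mice, 2.13-fold higher (log2 1.09 ± 0.17, SE; unadjusted p = 0.00119, limma adjusted p = 0.200). Ifit3, which stabilises Ifit1 in a complex, was at 196.3 and 342.3 in intact and 498.7 and 464.5 in splenectomized mice, 1.86-fold higher. The intact pair of Ifit3 lay further apart on the log2 scale than that of any other measured member, and its standard error was 0.29. Ifit2, another RNA-binding member of the family, was at 237.9 and 259.5 in intact and 375.7 and 356.3 in splenectomized mice, 1.47-fold higher. Ifit3 has a close copy in the mouse genome, Ifit3b, and the probe set may not tell them apart.

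The oligoadenylate synthetases make a second messenger that switches on RNase L. Of these, Oas1a was at 298.3 and 375.6 in intact and 567.4 and 503.8 in splenectomized mice, 1.6-fold higher, and it too belongs to a family of close copies. Oas2 had the lowest mean log2 signal of the tested RNA group over all 4 arrays, at 83.4 and 76.9 in intact and 97.0 and 113.2 in splenectomized mice, 1.31-fold. Oas3 was Absent on all arrays, with signals of 28.9 and 33.4 in intact and 38.1 and 54.2 in splenectomized mice, and was not tested. The related Oasl2 and Oasl1 are neighbours in the genome. Oasl2 was at 153.6 and 194.1 in intact and 372.2 and 307.2 in splenectomized mice, 1.96-fold higher, and Oasl1 was 1.55-fold higher.

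The remaining enzymes of this group stayed under 1.5-fold. Isg20, an exonuclease, was at 337.8 and 322.4 in intact and 409.7 and 529.9 in splenectomized mice, 1.41-fold higher. Adar, which edits adenosine to inosine, was at 172.9 and 201.4 in intact and 250.7 and 177.1 in splenectomized mice, 1.13-fold, with overlap. Eif2ak2, which encodes PKR, the kinase that stops translation, was at 119.6 and 103.0 in intact and 89.8 and 142.6 in splenectomized mice. Its splenectomized arrays lay on either side of the intact pair, and the fold was 1.02 (log2 0.03 ± 0.29, SE).

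Among the effectors at membranes, the GTPases and the nucleotide enzymes, Rsad2 had the largest fold change of all measured members. It encodes viperin, which makes a chain-terminating nucleotide. Its signal was 240.7 and 290.1 on the intact and 707.5 and 662.2 on the splenectomized arrays, 2.59-fold higher (log2 1.37 ± 0.15, SE; unadjusted p = 0.000288, limma adjusted p = 0.158). Of all genes tested, 1.28% had a larger log2 fold change. Cmpk2, a mitochondrial nucleotide kinase, is its direct neighbour in the genome, and was at 113.9 and 140.4 in intact and 176.7 and 184.1 in splenectomized mice, 1.43-fold higher. The log2 ratio of Rsad2 to Cmpk2 was 1.08 and 1.05 in intact and 2.0 and 1.85 in splenectomized mice.

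Rtp4, a transporter protein with antiviral activity, was at 563.3 and 643.5 in intact and 1188.9 and 1122.7 in splenectomized mice, 1.92-fold higher (limma adjusted p = 0.181). Bst2, which encodes tetherin, the protein that holds budding virus at the cell surface, had the highest signals of this group. It was at 954.5 and 939.3 in intact and 1229.0 and 1486.5 in splenectomized mice, 1.43-fold higher. Mx1, a dynamin-like GTPase whose gene is defective in C57BL/6 mice, was at 142.6 and 137.7 in intact and 166.2 and 211.7 in splenectomized mice, 1.34-fold. Its relative Mx2 was Absent on all arrays, at 7.1 and 5.8 in intact and 8.6 and 14.8 in splenectomized mice, where the median Absent signals of the 4 arrays were 5.7 to 6.5. Samd9l, a restriction factor that inhibits translation, was at 458.8 and 625.6 in intact and 643.9 and 569.7 in splenectomized mice, with overlap.

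The 4 measured genes outside these roles all exceeded 1.5-fold, against 13.5% of all genes. Ifi204, a DNA-binding protein of the p200 family, was at 78.4 and 93.7 in intact and 290.5 and 168.4 in splenectomized mice, 2.58-fold higher (log2 1.37 ± 0.31, SE; limma adjusted p = 0.336). Its splenectomized arrays were far apart, and the close relatives of this family may share its probes. Ifi27l2a, a small hydrophobic protein, was at 343.5 and 479.5 in intact and 959.1 and 902.0 in splenectomized mice, 2.29-fold higher (limma adjusted p = 0.200). Xaf1, a partner of the apoptosis inhibitor XIAP, was at 270.6 and 308.8 in intact and 588.8 and 628.8 in splenectomized mice, 2.10-fold higher (limma adjusted p = 0.162). Lgals3bp, a secreted glycoprotein, was at 458.8 and 510.8 in intact and 783.3 and 793.4 in splenectomized mice, 1.63-fold higher.

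Parp12, Parp14 and Trim30a complete the list. Trim30a, which in the mouse restrains Toll-like receptor signalling, had the highest mean log2 signal of the 3 over all 4 arrays, at 541.3 and 583.1 in intact and 879.8 and 804.3 in splenectomized mice, 1.5-fold higher. Parp12, an ADP-ribosyltransferase of stress granules, was 1.15-fold higher, at 586.8 and 546.7 against 670.4 and 634.2.

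Further detected probe sets existed for 13 members, 20 probe sets in all, and give a second reading of the same RNA. In 19 of them the direction was that of the probe set used. The exception was a probe set of Trim25, at 0.99-fold. The 3 probe sets of Rsad2 gave 1.82-fold to 2.59-fold, and both of Zbp1 gave 1.87-fold and 2.0-fold. Both of Rtp4 gave 1.92-fold and 2.07-fold. Dhx58 disagreed in size, with 1.23-fold from a dimmer probe set against 2.40-fold, and Ddx58 likewise, with 1.26-fold against 1.06-fold. The 4 probe sets of Herc6 ran from 1.02-fold to 1.46-fold, and the 3 of Ifi35 from 1.03-fold to 1.36-fold.

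**Figure D3:**
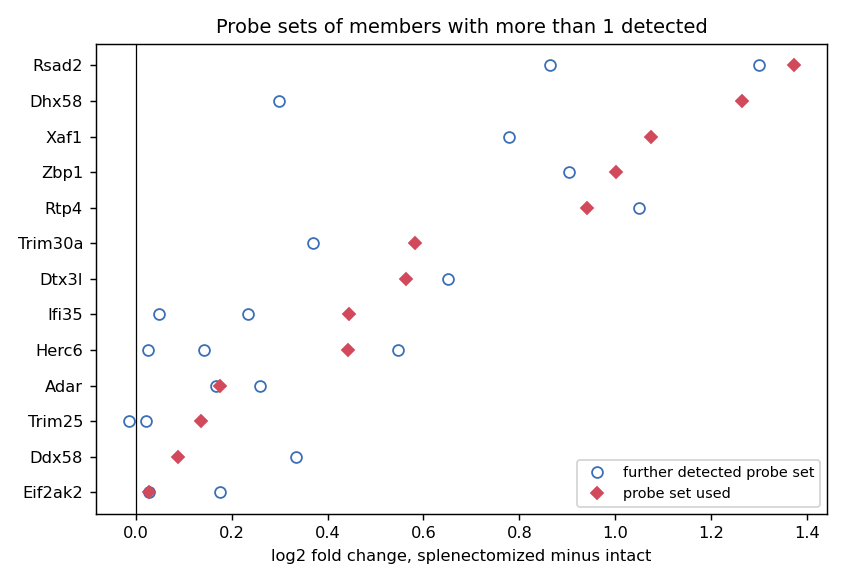
Log2 fold change (splenectomized minus intact) of every detected probe set for the 13 members with more than 1. Filled diamonds are the probe sets used and open circles the others; all but 1 circle, of Trim25, lie above 0, and Dhx58 shows the widest distance between circle and diamond.

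Upstream of these genes, the interferon genes that could be read were largely below detection. Of 20 listed type I and type III ligand genes, 9 had a probe set with 1 symbol. The others, among them the type III genes Ifnl2 and Ifnl3, had none and were not measured. Of the 9, Ifnb1 and 5 Ifna genes were Absent on all 4 arrays. Ifna11 was Present on 1 intact array only, with signals of 5.1 and 4.0 in intact and 5.9 and 4.1 in splenectomized mice. Ifnab was Present on 1 splenectomized array only, with signals of 3.1 and 7.5 in intact and 18.9 and 6.2 in splenectomized mice. Ifnz alone was Present on all arrays, at 51.2 and 36.3 in intact and 34 and 45.3 in splenectomized mice, with overlap. An Absent call gives a bound on the signal and does not show that the transcript is lacking.

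All 8 tested of 10 listed genes of interferon receptors and signalling had higher means in splenectomized mice. Their median log2 fold change was 0.29, against 0.56 for the members, and 0 passed the adjusted threshold. Irf9, the DNA-binding subunit that joins Stat2, was at 126.4 and 173.1 in intact and 229.4 and 221.8 in splenectomized mice, 1.52-fold higher. Socs3, a feedback inhibitor of cytokine receptors, was 1.47-fold higher, and the receptor gene Ifnar2 1.32-fold.

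Of 13 listed genes that induce interferon, 8 of the 11 tested had higher means and 3 lower, with a median of 0.17, and 0 passed the adjusted threshold. Irf7, the factor that amplifies interferon production and is itself interferon-induced, was at 106.0 and 111.1 in intact and 305.8 and 243.2 in splenectomized mice, 2.51-fold higher (limma adjusted p = 0.181). Tlr7, an endosomal RNA receptor, was Absent on both intact arrays and Present on both splenectomized arrays, with signals of 2.5, 1.3, 11.1 and 9.8. Tlr7 thus entered through its splenectomized calls alone (log2 2.53 ± 0.73, SE, limma adjusted p = 0.461). Measured against the higher of its own signal and the lowest Present signal on each intact array, it was 5.06-fold higher. Both intact signals lay below the median Absent signals of those arrays, 5.7 and 5.9, so the size of this fold is uncertain. Tlr3, a receptor of double-stranded RNA, was at 31.0 and 54.8 in intact and 97.8 and 70.4 in splenectomized mice, 2.01-fold higher. Irf3 and Mavs, which relay the signal of the RNA sensors, had lower means, at log2 fold changes of -0.25 and -0.22. Their unadjusted p-values in limma were 0.156 and 0.181. Irf3 and Mavs both lacked overlap between the groups, as did 2593 of all 13148 genes in that direction. The probe sets of Irf3, Mavs, Tlr3 and Socs3 are all of a type that can read more than 1 gene.

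The eyes also differed in markers of other cells, and in whole tissue more cells of a type and more RNA per cell cannot be told apart. All 15 tested of 17 listed macrophage genes had higher means in splenectomized mice, and their median was 0.87 on the log2 scale against 0.56 for the members. The summed signal of the macrophage list was 13439 to 14767 in intact and 23841 to 24988 in splenectomized mice. Of 14 cytotoxic lymphocyte genes, the 9 that were Present on all arrays were higher as well, with a median of 1.81. Another 4, Gzmk, Ncr1, Eomes and Cd8a, were Absent on both intact arrays and so entered through their splenectomized calls alone. The summed signal of the 14 was 1829 to 1972 against 6557 to 6668. All 25 tested of 27 genes in the list of interferon gamma and its response were higher too, with a median of 0.95. Ifng, the gene of interferon gamma, was at 149.8 and 116.4 in intact and 381.0 and 414.6 in splenectomized mice, 3.01-fold higher. Cd74 and H2-Ab1, genes of the class II pathway of antigen presentation, were 2.47-fold and 2.27-fold higher. The H2-Ab1 probe set is of a type that can read more than 1 gene. Of the 34 members, 24 had a fold change below the macrophage median and 26 below that of the interferon gamma list. The neutrophil list had a median of 0.65 over 6 tested of 10 genes, and of 0.31 without intact replicate 2. Of 5 B cell genes, Ms4a1 and Cd79b were tested, at low signals of 5.8 to 15.6 in intact and 17.5 to 33.3 in splenectomized mice, and Cd79a and Pax5 were Absent on all arrays. The part of these cells and of interferon gamma in the differences of the members was not tested.

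Genes listed as markers of plasmacytoid dendritic cells, known as strong producers of type I interferon, were mixed in direction. In whole eyes the cells that gave these signals were not identified. Of 7 tested of 8 listed, 4 had higher and 3 lower means, with a median log2 fold change of 0.46. That median turned to -0.11 without intact replicate 1 and was 0.13 without splenectomized replicate 1. Among the 5 that were Present on all arrays, 2 had higher means and the median was -0.04. Ly6d, a surface protein, was at 76.9 and 29.4 in intact and 268.3 and 193.4 in splenectomized mice, and Tcf4, the transcription factor of this lineage, was 1.62-fold higher. The summed signal was 2760 to 2976 in intact and 2992 to 3162 in splenectomized mice, most of it from the chemokine receptor gene Ccr9 at 1846.4 to 2135.7. The sum thus mostly follows Ccr9, whose probe set is of a type that can read more than 1 gene. Siglech, a defining marker, was Absent on both intact arrays at 22.8 and 23.2. It was Present on both splenectomized arrays at 31.8 and 31.5, and so entered through those calls alone. Its signals gave a fold of 1.38 (log2 0.46 ± 0.33, SE, limma adjusted p = 0.690).

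Genes of T cells that the injected lymphoma can share had mostly lower means. Of 7 tested of 10 listed, 6 had lower means in splenectomized mice, with a median of -0.15. Leaving out single arrays moved that median from -0.49 without intact replicate 2 to 0.01 without intact replicate 1, so its sign rested on intact replicate 1. The sums were 10870 to 15394 in intact and 10612 to 12332 in splenectomized mice. Cd4 was Absent on all arrays. The log2 mean of the members relative to their gene means was -0.40 and -0.24 on the intact arrays and 0.33 and 0.31 on the splenectomized arrays. The intact pair lay further apart than the splenectomized pair.

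**Figure D4:**
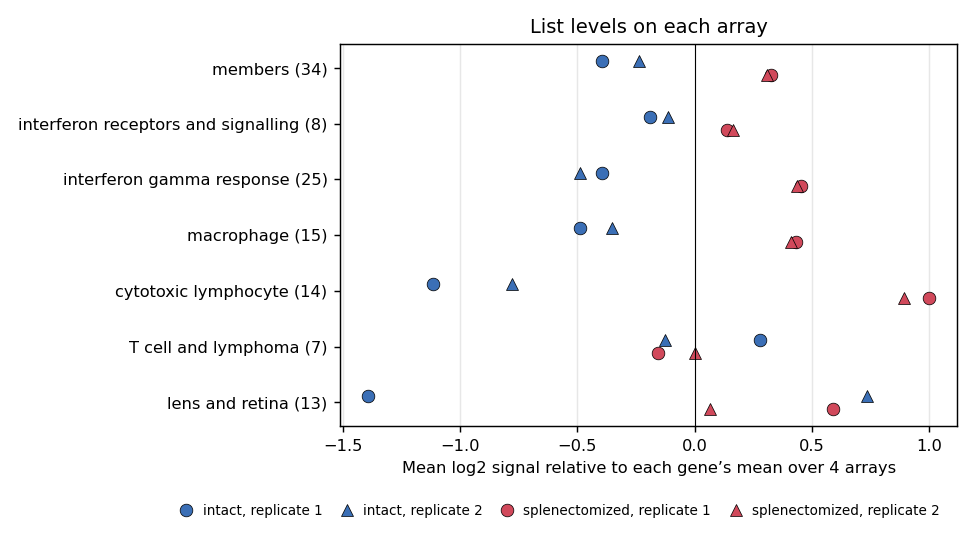
Mean log2 signal of each list on each array, relative to each gene's own mean over the 4 arrays, with the number of genes tested in brackets. The members lie at -0.40 and -0.24 in intact (blue) and 0.33 and 0.31 in splenectomized mice (red), while the lens and retina list separates intact replicate 1 at -1.39 from the other arrays.

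Intact replicate 1 stood apart from the other arrays in tissue content. Its summed signal of 13 lens and retina genes was 14648, against 32123 to 40506 on the other 3, and its T cell sum of 15394 was the highest. The Y-linked genes were also lowest there (Eif2s3y at 137.5 against 208.7 to 299.5). So was the X-linked Xist, Absent on that array at 6.3 against 14.8 to 21.3. With the sex of each animal unknown, sex and tissue content cannot be told apart in these sex-linked genes. The lens and retina genes had higher means in splenectomized mice, all 13 of them, with a median log2 fold change of 0.66 that turned to -0.41 without this array. Without that array, 32 of 34 members still had higher means in splenectomized mice, at a median of 0.49 on the log2 scale, and Ddx58 and Samd9l turned to -0.02 and -0.05. Without intact replicate 2, the intact array with the higher lens and retina sum, 33 were higher, with a median of 0.66, and Eif2ak2 was at -0.08. Across all genes the intact pair differed more than the splenectomized pair (SD of the difference between arrays 0.74 and 0.41 on the log2 scale). Across the 34 members the same SD was 0.23 and 0.26, and the intact value was not the larger one. Such an SD leaves out a shift shared by the members. Of the 34, 24 were higher on intact replicate 2 than on intact replicate 1, and 14 were higher on splenectomized replicate 2 than on splenectomized replicate 1. The part of tissue content in the members' values was not tested beyond these values.

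**Figure D5:**
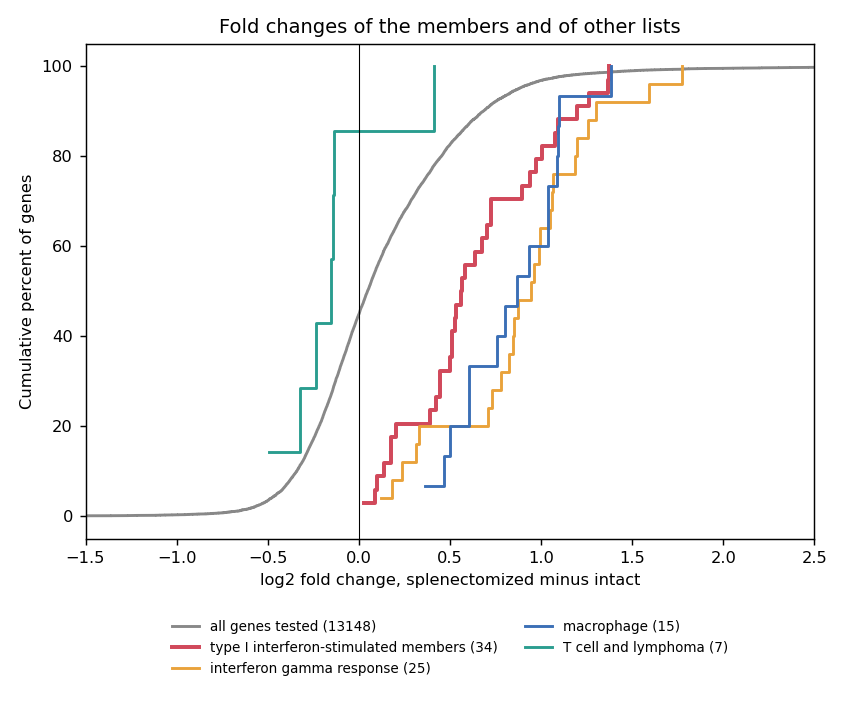
Cumulative percent of genes by log2 fold change, splenectomized minus intact, for all 13148 genes tested, the 34 members and 3 other lists, with the number of genes in brackets. The curve of the members lies to the right of that of all genes and to the left of the macrophage and interferon gamma curves over most of its course, with medians of 0.05, 0.56, 0.87 and 0.95; the T cell curve has its median at -0.15.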

How the data were processed

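Total RNA of 4 tumour-bearing eyes was labelled with biotin from 500 ng of RNA, per the labels' protocols. Per the submitters' processing notes, the authors made the values with GCOS 1.4 and MAS5. The deposited files hold signal intensities on a linear scale and, per the file headers, Present or Absent calls, of 45101 probe sets. The sources used here do not give the scaling target, and each array had a mean of 149 after trimming 2% at each end. The 64 control probe sets were left out. Present calls made up 53.2% to 58.5% an array, and the number of arrays limits the precision.

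Signals were raised to at least 0.1 and put on the log2 scale with no pseudocount. Names came from the platform annotation, where 34945 probe sets had 1 symbol, 932 several and 9160 none. Of those with 1, 34741 matched RefSeq by Entrez identifier and 0 symbols changed. Probe sets with several symbols named none. Splenectomized and intact arrays were compared with limma 3.58.1 in R 4.3.3 (linear fits, then eBayes moderation following the intensity trend, 2 residual and a median of 3.05 prior degrees of freedom) over all 13148 genes, two-sided, with Benjamini-Hochberg adjustment at 0.05. The fit was checked on simulated data. Errors of log2 fold changes are standard errors of limma. Counts and medians over members are descriptions and were not tested. The labels and files give no batch.

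The members, lists, role groups and tests were chosen with earlier results of these data known. Every member is accounted for, and values on each array are given for the 12 members with the largest fold change, those Absent in a group and the highest and lowest of each role, with others added where they complete a family or have overlapping groups. Up to 3 genes of smallest p are named from each interferon pathway list. Irf3, Mavs, Eif2s3y, Xist and the marker genes of other cells were named after their values were seen. The alternatives tried were quantile scaling, median centring, a pseudocount of 16, other detection filters, averaging the probe sets of each gene, dropping those prone to cross-hybridization, a replicate block, moderation without the intensity trend and leaving out each array. Plots used matplotlib 3.10.9 and Python 3.11.15.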

Additional observations from a re-analysis of the deposited data

How the results depend on the processing

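Under 13 other settings and 1 added after seeing the data, 470 values of single members were computed, of which 216 equalled the reported value, among them all those of 4 settings that alter only the test or drop no member, and say nothing on direction. Of the 254 that differed, 247 kept the direction, and 30 members kept it throughout. The exceptions were Eif2ak2, at -0.042 with quantile scaling and -0.036 with median centring, and 4 members when single arrays were left out. Over those 4 fits Eif2ak2 ran from -0.31 to 0.36, Ddx58 from -0.020 to 0.20, Samd9l from -0.047 to 0.40 and Adar from -0.075 to 0.43; the cause was not tested. Leaving out each array in turn gave a median log2 fold change of the members from 0.49 to 0.66, 12 to 26 members with an unadjusted p under 0.05, and 0 to 2830 genes past the adjusted threshold over all genes. With 1 array left in a group, the spread comes from the other pair alone and the lone array is assumed to vary likewise. Counts of genes or members under a p threshold in these 4 fits therefore cannot show whether the members differed more than other genes. Without intact replicate 1 or 2, 6 and 20 members passed, and without splenectomized replicate 1 or 2, 0 passed, with 13 and 12 at an unadjusted p under 0.05. Quantile scaling gave 1 gene past the threshold, not a member. With the replicate number as a block, which leaves 1 residual degree of freedom, 15 members had an unadjusted p under 0.05 and 0 genes passed. The labels do not say that equal numbers mark a shared litter or day, and the differences between replicates 1 and 2 correlated at -0.44 between the groups across genes. A block with the numbers crossed, added after seeing this, gave 99 genes past the threshold, 4 of them members. The lists' medians moved by more than the spread between replicates in 23 of 167 comparisons. With no detection filter, 36 members could be fitted and all 36 were higher.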
